A study of Rattus norvegicus with 16 samples.

Results

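Both TRKA populations sorted from cultures of rat olfactory mucosa were compared with the p75 and CD90 populations of the same study. All 16 arrays of the study entered the comparison, 8 on the TRKA side (4 TRKA and 4 TRKA-TGF) and 8 on the other side (4 p75 and 4 CD90), and they were chosen by their sample titles. The genes described are those that differed in the same direction within each of the 2 array slides. Slide 1 held the p75 and TRKA arrays and slide 2 the CD90 and TRKA-TGF arrays, so that the TRKA versus p75 comparison and the TRKA-TGF versus CD90 comparison shared no array.

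Olfactory mucosa lines part of the nasal cavity and holds the olfactory epithelium above a layer of connective tissue. Per the labels, all cells came from male Fischer rats, a laboratory strain, and were separated on a fluorescence-activated cell sorter with a purity of 93 to 97%. The CD90, p75 and TRKA cells were grown by one common protocol, and the TRKA-TGF cells were TRKA cells conditioned with TGF-a, as the label spells it. The labels give no transgene, no age and no name of the antibodies used for sorting, and all 4 populations were cultured cells. Each array carried a sample that the labels call a biological replicate. Whether replicates came from separate animals or cultures is not stated, so p-values measure the spread between these samples, which may be partly technical. Messenger RNA was amplified by a PCR protocol before hybridisation, and in such bulk samples fewer cells of a type and less RNA per cell cannot be told apart.

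Of the proteins that name the populations, p75 is the low-affinity neurotrophin receptor found on olfactory ensheathing glia and CD90 a surface glycoprotein of fibroblasts and other cells. Phagocytes of the myeloid lineage signal through small adaptor proteins such as DAP12, the product of Tyrobp, whose ITAM motifs recruit the kinase Syk. Their gene programme depends on the transcription factor PU.1, the product of Spi1. Adherent mesenchymal and glial cells build a basement membrane, in which nidogen-1, the product of Nid1, links laminin to collagen IV, and they sense tension through focal adhesions and the Hippo pathway effectors YAP and TAZ, which act with TEAD factors on targets such as Ccn1 and Ccn2.

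Levels are log2 background-subtracted signals from which the array's own 75th percentile was subtracted, so that 0 is that percentile. A difference is TRKA minus p75 (slide 1) or TRKA-TGF minus CD90 (slide 2) in log2 units, and SE is its standard error from the limma fit. A gene was called at a Benjamini-Hochberg adjusted p under 0.05 over all 20558 genes tested, and it was shared when it was called with the same sign on both slides. Where a population had no array with the probe well above background, its level is a bound, the change is given as at least so many fold where that is above 1, and sizes of such changes have no measured order. A fitted difference is printed also where only some arrays of a population were well above background. Its size and SE then rest in part on dim values.

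Promoter sequences are shown for 7 shared genes whose promoters hold a motif of PU.1 or of TEAD. They come from RefSeq on the GRCr8 assembly of the rat genome, run 5' to 3' on the strand of the gene and end at the base before the transcription start. The motif searched for PU.1 was GAGGAAGT and that for TEAD was GGAATG, each on both strands, and the match is in capitals. The first 4 genes were higher in both TRKA populations. They encode the leukocyte tetraspanins CD53 and CD37, the alpha chain of the GM-CSF receptor (Csf2ra) and the exchange factor Vav1. Their promoters lie at chr2:197087897-197087996 (minus strand), chr1:104860785-104860884 (minus strand), chr14:118118-118217 (minus strand) and chr9:2248855-2248954 (plus strand).
Cd53: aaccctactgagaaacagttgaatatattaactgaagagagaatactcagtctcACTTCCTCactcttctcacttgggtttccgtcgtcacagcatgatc
Cd37: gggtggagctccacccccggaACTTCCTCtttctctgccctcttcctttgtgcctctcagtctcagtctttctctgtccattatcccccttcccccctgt
Csf2ra: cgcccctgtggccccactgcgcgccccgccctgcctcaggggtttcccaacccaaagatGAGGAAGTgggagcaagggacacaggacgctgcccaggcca
Vav1: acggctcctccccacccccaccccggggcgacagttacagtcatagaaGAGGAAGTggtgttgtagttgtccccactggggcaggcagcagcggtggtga

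The other 3 genes were lower in both TRKA populations. Ccn2 and Ccn1 encode secreted matricellular proteins and Amotl2 an angiomotin-like scaffold, all known targets of YAP and TAZ. Their promoters lie at chr1:22624615-22624814 (minus strand), chr2:237225690-237225889 (minus strand) and chr8:112182426-112182625 (plus strand). Ccn2 holds 3 matches, which begin at positions -166, -101 and -92 from the start.
Ccn2: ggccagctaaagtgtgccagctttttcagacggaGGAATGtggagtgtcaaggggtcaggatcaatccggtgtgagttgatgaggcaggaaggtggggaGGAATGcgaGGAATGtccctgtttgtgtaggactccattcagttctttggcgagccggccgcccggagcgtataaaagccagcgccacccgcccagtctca
Ccn1: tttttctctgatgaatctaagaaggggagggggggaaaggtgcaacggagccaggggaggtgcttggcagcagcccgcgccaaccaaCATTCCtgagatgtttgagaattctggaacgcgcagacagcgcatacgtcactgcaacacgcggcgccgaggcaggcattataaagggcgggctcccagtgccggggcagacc
Amotl2: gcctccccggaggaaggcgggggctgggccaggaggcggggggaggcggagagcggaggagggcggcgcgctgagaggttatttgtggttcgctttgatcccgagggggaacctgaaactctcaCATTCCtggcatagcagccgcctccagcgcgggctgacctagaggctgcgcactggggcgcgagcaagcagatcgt

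The arrays differed in how much they detected. On slide 1, 51.4 to 57.5% of spots were well above background on the TRKA arrays and 68.5 to 71.2% on the p75 arrays. On slide 2 the range was 66.4 to 70.6% for TRKA-TGF and 70.7 to 72.4% for CD90. Averaged over both slides the share differed by -9.18 percentage points on the TRKA side (exact permutation test within slides, two-sided, 4900 assignments, p = 0.000408), and the difference ran from -9.67 to -8.65 points when any 1 array was left out. The TRKA arrays also resembled each other least, with correlations across probes of 0.777 to 0.803, against 0.884 to 0.931 within the other 3 populations. The part of this lower detection in genes called lower in TRKA was not tested. Groups and array rows cannot be told apart within a slide, since p75 and TRKA-TGF lay in row 1 and TRKA and CD90 in row 2.

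Of 20558 genes, 1506 differed the same way within both slides (7.33%), 809 higher (3.94%) and 697 lower (3.39%) in the TRKA populations. TRKA versus p75 gave 7150 calls (34.8%), of which 3482 were higher (16.9%) and 3668 lower (17.8%). TRKA-TGF versus CD90 gave 3065 calls (14.9%), of which 1620 were higher (7.88%) and 1445 lower (7.03%). The shared genes were thus 21.1% of the calls on slide 1 and 49.1% of those on slide 2. These counts and shares rest on 1 estimate of spread over all 16 arrays. With each slide fitted alone, slide 1 gave 4787 calls, slide 2 gave 4215 and 1303 genes were shared. With array weights the counts were 5605, 4702 and 1648. How much more widely slide 1 differed than slide 2 therefore depended on how the spread was estimated. Of the 1731 genes called on both slides, 87.0% had the same sign and 225 (1.09% of all genes) had opposite signs. With slide as a block, all 16 arrays together gave 5225 calls (25.4%; 2795 higher, 13.6%, and 2430 lower, 11.8%). These included every one of the 1506 shared genes, which is no independent result, since the blocked estimate averages the same 2 within-slide differences. In 1385 genes (6.74%) the 8 arrays of the TRKA side did not overlap the other 8 (826 higher, 4.02%; 559 lower, 2.72%), and 985 of them were shared.

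**Figure D1:**
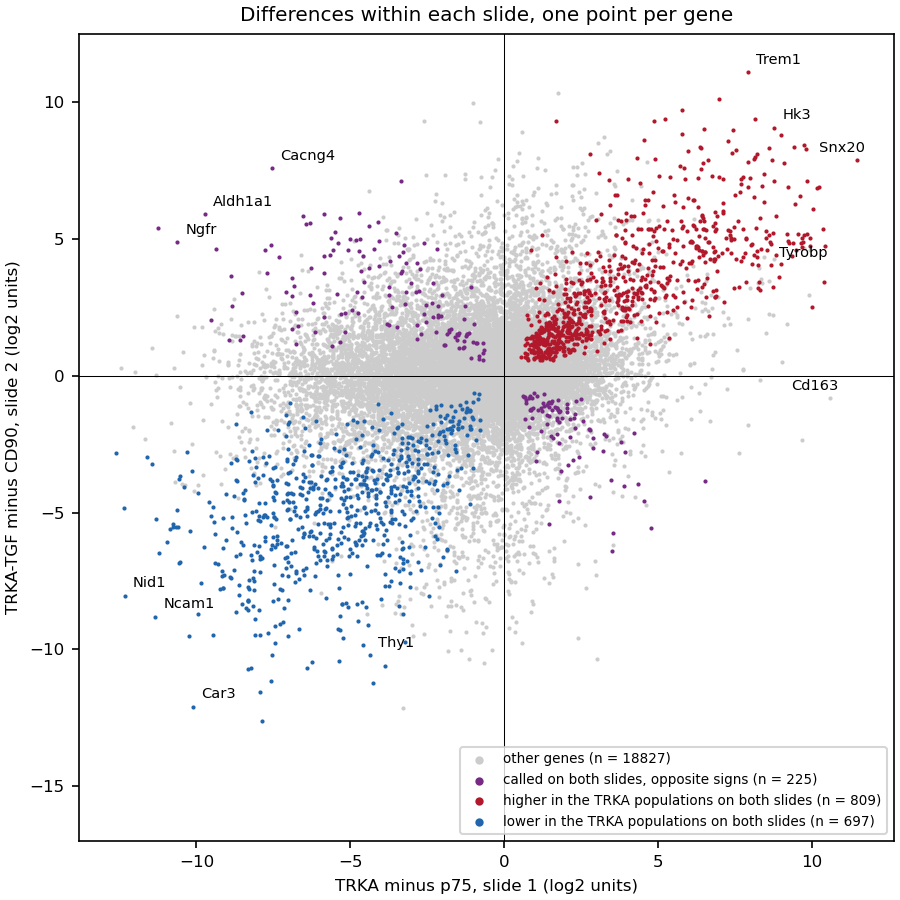
Difference TRKA minus p75 on slide 1 (horizontal axis, log2 units) against TRKA-TGF minus CD90 on slide 2 (vertical axis, log2 units), 1 point per gene tested. Red and blue points are the 809 and 697 genes called higher and lower on both slides, purple points the 225 called with opposite signs and grey points the 18827 other genes.

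The balance of higher and lower calls rested on the scaling. Of the shared genes 53.7% were higher here. That share was 35.2% when each array was scaled to the 75th percentile of the probes detected on all arrays, a scaling that moved the median difference of all genes from -0.12 to -0.90 on slide 1 and from 0.17 to -0.07 on slide 2. Under the same scaling the share of higher calls went from 53.5 to 25.4% with slide as a block, from 48.7 to 20.7% on slide 1 and from 52.9 to 42.0% on slide 2. On slide 1 the share was 61.4% with normexp background correction and 60.5% with quantile normalization. Statements on direction below are therefore read against the median of all genes, and each gene named as higher or lower on both slides kept its sign under each of these scalings.

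Ranked by the smaller of their 2 fitted differences, among 593 genes with a symbol that were detected on all 8 TRKA-side arrays, the first 12 were Igsf7 l1, Hk3, Cfd, Fcna, Alox5ap, Ptpro, Cd53, Clec4d, Myo1g, Trem1, Arhgap4 and Snx20. For 5 of them, Igsf7 l1, Hk3, Ptpro, Clec4d and Myo1g, no p75 array was well above background, so their place in this ranking is not measured. Alox5ap was well above background on 1 p75 and 1 CD90 array and Fcna on 1 p75 and 2 CD90 arrays, so their sizes rest in part on dim values. Hk3 encodes hexokinase 3, the hexokinase of myeloid cells, and its probe lies on chromosome 17 (15668934 to 15668993, rn4 assembly). It stood at 1.52, 0.18, 0.51 and -0.51 on the TRKA arrays and at -8.47, -8.25, -8.16 and -8.45 on the p75 arrays. On slide 2 it stood at 0.98, -0.33, 2.10 and 1.23 in TRKA-TGF and at -7.68, -8.48, -7.59 and -8.58 in CD90. The 2 sides did not overlap, and no p75 or CD90 array showed the probe well above background, so that Hk3 was at least 209.6-fold higher in TRKA than in p75 and at least 319-fold higher in TRKA-TGF than in CD90 (fitted differences 8.76 and 9.07, SE 0.50, limma adjusted p = 1.78e-08 and 3.66e-08).

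Among the others of the 12, Cfd encodes the alternative-pathway protease factor D and differed by 9.73 on slide 1 and 8.43 on slide 2 (SE 0.79). Alox5ap encodes the protein that presents arachidonic acid to 5-lipoxygenase and differed by 8.59 and 8.31 (SE 1.58), but CD90 replicate 3, at 0.19, overlapped the TRKA arrays of the other slide. Myo1g, a leukocyte myosin, was at least 133.6-fold higher on slide 1, differed by 7.91 on slide 2 (SE 1.21) and was the other of the 12 whose sides overlapped. Trem1, an amplifying receptor of the DAP12 family, differed by 7.91 and 11.11 (SE 1.25). Snx20 encodes a sorting nexin of leukocytes and was the only one of the 12 whose 2 differences differed from each other (11.45 against 7.88, difference 3.56, limma adjusted p = 0.00919).

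**Figure D2:**
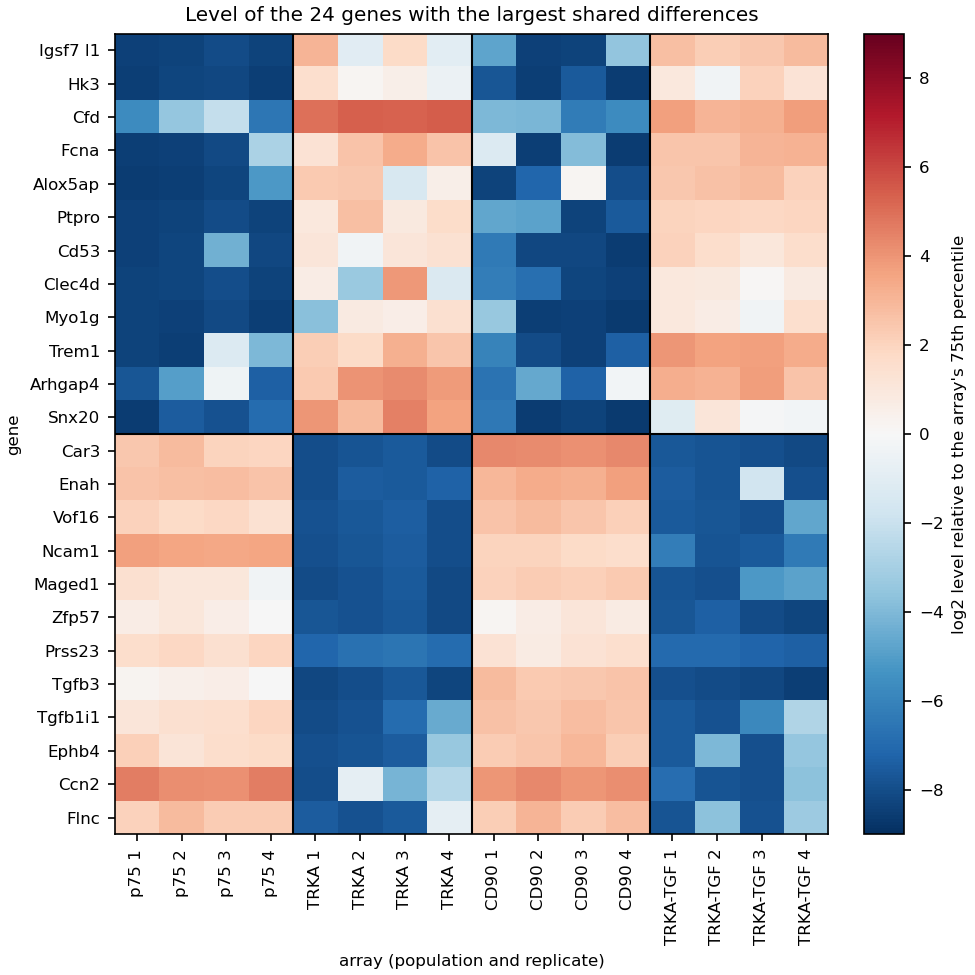
Level of the first 12 genes higher and the first 12 lower on both slides, in log2 units with the array's 75th percentile at 0 (colour), on the 16 arrays (columns, in 4 populations of 4). In the upper block the TRKA and TRKA-TGF columns lie above the p75 and CD90 columns and in the lower block below them, with exceptions such as Alox5ap on CD90 replicate 3, at 0.19.

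The genes of ITAM signalling, from receptor to kinase to phosphatase, were higher in both TRKA populations in 19 of 21 measured members, and none was called lower (background 3.94 and 3.39%). This list and those below were chosen with earlier results of these data known. Their counts beside the background describe the lists and are no independent test. The median difference of the 21 was 6.57 on slide 1 and 5.03 on slide 2, against -0.12 and 0.17 over all genes. Tyrobp encodes the adaptor DAP12, and its probe lies on chromosome 1 (85369110 to 85369169, rn4). It stood at 5.92, 6.24, 6.21 and 6.04 on the TRKA arrays and at 5.12, 4.76, 5.09 and 5.02 on the TRKA-TGF arrays. It stood at -6.80, 0.10, -3.57 and 0.03 on the p75 arrays and at 1.54, 1.06, -0.19 and 1.41 on the CD90 arrays. All 8 TRKA-side arrays lay above the other 8, and the p75 arrays spread most. Tyrobp rose by 8.66 on slide 1 and by 4.04 on slide 2 (SE 1.15, limma adjusted p = 5.40e-05 and 0.0283). Its call on slide 2 was lost when any of 6 single arrays was left out (CD90 replicate 2 or 3, or any TRKA-TGF replicate), with differences of 3.66 to 4.24 and adjusted p of up to 0.0809 over the 16 omissions.

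Fcer1g, the common gamma chain of Fc receptors, rose by 4.89 and 2.83 (SE 0.29), and the difference between these was itself called (2.06, limma adjusted p = 0.00317). Trem2, a lipid-binding receptor that pairs with DAP12, rose by 6.45 and 5.76 (SE 0.96). The IgG receptor Fcgr1a rose by 7.80 and 4.49 (SE 0.98), and the inhibitory Fcgr2b by 3.42 and 3.30 (SE 0.33). Fcgr3a (6.53 and 2.67, SE 1.76) was called on slide 1 and the kinase Fgr (4.44 and 6.93, SE 1.71) on slide 2, and these were the 2 members not shared. The slide 1 value of Fgr was called under 6 alternative settings.

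Syk, the tandem-SH2 kinase recruited to ITAMs, stood at 3.30, 2.58, 3.67 and 4.07 on the TRKA arrays and at -6.26, -5.15, -5.64 and -2.19 on the p75 arrays. On slide 2 it stood at 3.05, 2.54, 3.12 and 2.52 in TRKA-TGF and at -0.12, -4.83, -1.95 and 0.71 in CD90. The sides did not overlap, and the rise was 8.21 and 4.36 (SE 1.05, limma adjusted p = 4.09e-05 and 0.0116). The Tec kinase Btk rose by 8.84 and 5.85 (SE 1.19) and the phospholipase Plcg2 by 7.97 and 7.22 (SE 1.35). Vav1, whose promoter is printed above, was well above background on no p75 array and exceeded p75 at least 539-fold in TRKA and rose by 6.08 on slide 2 (SE 1.20). The phosphatases that end such signals rose as well, Ptpn6 (SHP-1) by 6.41 and 4.55 (SE 0.77) and Inpp5d (SHIP-1) by 8.50 and 5.29 (SE 1.29). The receptor gene Sirpa also rose (2.60 and 2.99, SE 0.28).

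All 5 measured genes of the phagocyte NADPH oxidase, the enzyme that makes superoxide in phagocytes, were higher on both slides (background 3.94%). Cybb encodes the catalytic subunit gp91phox and stood at 4.79, 4.80, 5.10 and 4.51 in TRKA and at -5.22, -5.79, -1.55 and -5.18 in p75. In TRKA-TGF it stood at 5.32, 5.36, 5.41 and 5.20 and in CD90 at -0.10, 0.91, 0.29 and 0.76. No array overlapped, and the rise was 9.24 on slide 1 and 4.86 on slide 2 (SE 0.69, limma adjusted p = 2.49e-07 and 0.000215), a difference between slides of 4.38 (adjusted p = 0.00702). The cytosolic subunit genes Ncf1 and Ncf4 rose by 5.62 and 7.36 on slide 1 and by 2.52 and 4.97 on slide 2. Cyba, the membrane partner p22phox, rose by 4.27 and 3.00 (SE 0.79), and its call on slide 2 was lost without CD90 replicate 4 or TRKA-TGF replicate 3 (lowest difference 2.33, adjusted p up to 0.0560).

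Surface and actin-regulating genes of leukocytes were higher on both slides in 14 of 18 measured members (background 3.94%), with medians of 7.07 and 4.79. Cd53 rose by 8.13 and 9.39 (SE 0.82) and Cd37 by 8.76 and 7.13 (SE 0.86), both tetraspanins whose promoters are printed above. The pan-leukocyte phosphatase CD45, encoded by Ptprc, was well above background on no p75 array and was at least 86.3-fold higher in TRKA, with a rise of 8.13 on slide 2 (SE 1.04). The integrin beta-2 gene Itgb2 was likewise well above background on no p75 array and rose by at least 507-fold on slide 1, against a fitted 4.76 on slide 2 (SE 0.48). The difference between the slides was called for Itgb2 (limma adjusted p = 0.000142) and for the adaptor Fyb1 (at least 629.6-fold on slide 1 against a fitted 3.43 on slide 2, adjusted p = 9.10e-05). Cd48 went against the rest of the list, lower in TRKA than in p75 (-4.78) and higher in TRKA-TGF than in CD90 (3.08, SE 0.88). That slide 2 call on Cd48 was lost without any of 7 arrays (CD90 replicate 1, 2 or 3, or any TRKA-TGF replicate, adjusted p up to 0.0841).

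Receptors for colony-stimulating factors and myeloid transcription factors were higher on both slides in 9 of 18 members (background 3.94%), with medians of 3.80 and 4.53. Spi1, the gene of PU.1, has its probe on chromosome 3 (75475250 to 75475309, rn4). It stood at -1.83, -2.49, 3.04 and 1.02 in TRKA and at -4.97, -4.23, -4.95 and -4.88 in p75. In TRKA-TGF it stood at 1.07, 0.34, 2.16 and -0.56 and in CD90 at -5.36, -2.76, -5.12 and -5.22. The sides did not overlap although the TRKA arrays spread over several log2 units, and the rise was 4.69 and 5.37 (SE 1.04, limma adjusted p = 0.00314 and 0.00264). Csf1r, the macrophage growth factor receptor, rose by 6.83 and 4.26 (SE 0.68), and Csf2ra by 5.29 and 3.56 (SE 0.63).

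The transcription factors of the list did not all move alike. Of its 18 members, 10 were higher and 1 lower on slide 1 (background 16.9 and 17.8%). On slide 2, 13 were higher and none lower (background 7.88 and 7.03%). The factors that follow are examples and do not cover every member. Irf5 (3.81 and 5.04, SE 1.02) and Maf (3.79 and 1.66, SE 0.33), factors of macrophage differentiation and cytokine control, rose on both slides. Cebpb, a C/EBP factor, rose by 4.11 on slide 1 and differed by 0.46 on slide 2 (SE 0.43), and the slides differed by 3.64 (limma adjusted p = 0.000968). The lipid-sensing nuclear receptors were called on slide 2 and not on slide 1. Nr1h3 differed by 1.74 on slide 1 (SE 1.93) and was at least 736.4-fold higher on slide 2, where no CD90 array was well above background. Pparg rose by 4.79 on slide 2 (SE 0.85), and the slide 2 rises of both were called (adjusted p = 0.00198 and 0.00135). Pparg was well above background on no TRKA or p75 array, so its slide 1 value has no interpretable direction.

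Toll-like receptor genes were shared in 4 of 13 members, all higher, and complement and scavenger receptor genes in 10 of 15, all higher (background 3.94%). In the complement and scavenger list 1 member was called lower on slide 2 (background 7.03%). Tlr2 rose by 8.31 and 3.15 (SE 0.76), Tlr4, the endotoxin receptor, by 4.35 and 5.37 (SE 0.99). Tlr7 was at least 9.98-fold higher on slide 1 and rose by 5.95 on slide 2 (SE 0.96). Cd14, the endotoxin co-receptor, rose by 8.35 on slide 1 and differed by 3.52 on slide 2 without a call (SE 1.30, limma adjusted p = 0.0936), a value called under 3 alternative settings. The complement subunit gene C1qc rose by 4.40 and 3.20 (SE 0.31), the scavenger receptor gene Msr1 by 6.83 and 2.89 (SE 0.66), and the lysosomal marker Cd68 by 7.67 and 4.18 (SE 0.41). Cd163, the haemoglobin scavenger receptor of macrophages, stood at 4.94, 5.14, 4.97 and 4.45 on the TRKA arrays. It was well above background on 2 p75 arrays, 1 CD90 array and no TRKA-TGF array. Its rise of 10.57 in TRKA over p75 was called (SE 1.32, adjusted p = 3.23e-05), and the difference between the slides was too (adjusted p = 0.000894), though with no TRKA-TGF array well above background its size is not measured.

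Genes of antigen presentation on MHC class II were called on slide 1 in most members. Of 13, 11 were higher in TRKA than in p75 (background 16.9%), 6 were higher and 1 lower in TRKA-TGF than in CD90 (background 7.88 and 7.03%), and 5 were shared (background 3.94%). The difference between slides was called for 8 of the 13, against 18.5% of all genes. RT1-Da encodes the alpha chain of the rat RT1.D molecule. It stood at 4.97, 5.33, 5.28 and 5.09 in TRKA and at 0.23, -0.90, 0.14 and -0.15 in p75. In TRKA-TGF it stood at 1.35, 1.04, 0.59 and 0.18 and in CD90 at 0.04, -0.34, -0.05 and 0.40. TRKA stood apart from the other 3 populations, and CD90 and TRKA-TGF overlapped at 1 TRKA-TGF array. The difference was 5.34 on slide 1 and 0.78 on slide 2 (SE 0.31, limma adjusted p = 2.32e-08 and 0.128), and the slides differed by 4.56 (adjusted p = 1.11e-05). Ciita, the master activator of class II genes, was well above background on no p75 array and at least 230.1-fold higher in TRKA, and its slide 2 difference of 1.56 was not called (SE 1.39).

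Within the same list, genes of peptide loading and maturation were among those shared. Cathepsin S, encoded by Ctss, rose by 4.75 and 2.82 (SE 0.32), RT1-DMb, a chain of the peptide-exchange molecule, by 5.77 and 4.19 (SE 0.61), and the maturation marker Cd83 by at least 543-fold on slide 1 and 6.89 on slide 2 (SE 1.23). Cd74, the invariant chain, rose by 5.36 and 1.37 (SE 0.42), and RT1-DMa by 7.86 and 3.44 (SE 1.06). The slide 2 calls of these last 2 genes were near the threshold (limma adjusted p = 0.0405 and 0.0433). The call on Cd74 was lost without any of 9 arrays (CD90 replicate 2, 3 or 4, p75 replicate 2 or 3, or any TRKA-TGF replicate), with differences of 0.92 to 1.71 and adjusted p of up to 0.0995 over the 16 omissions. The call on RT1-DMa was lost without any of 13 arrays, all but CD90 replicate 4 and p75 replicates 1 and 2, with differences of 2.64 to 3.93 and adjusted p of up to 0.128. Both calls were also lost when scaled to the probes detected on all arrays (1.13 and 3.20). The shared count of the list went from 5 to 3 without any of 7 arrays (CD90 replicate 2 or 3, p75 replicate 3, or any TRKA-TGF replicate). RT1-Db1, the beta chain that partners RT1-Da, differed by 6.36 and 1.46 (SE 0.58), called on slide 1 alone, and the slides differed by 4.91 (adjusted p = 0.00100).

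**Figure D3:**
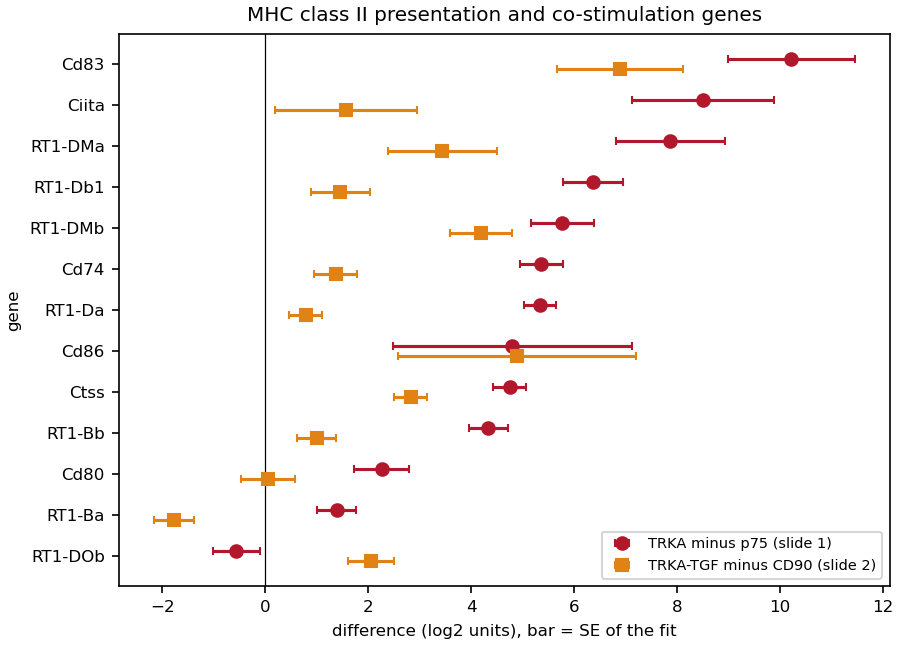
Difference (horizontal axis, log2 units) for the 13 MHC class II presentation and co-stimulation genes tested, TRKA minus p75 on slide 1 (circles) and TRKA-TGF minus CD90 on slide 2 (squares), with the SE of the fit as bars. The circle of RT1-Da lies at 5.34 and its square at 0.78, whereas RT1-DMb has both marks right of 4.

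Among 521 genes detected on all 8 p75 and CD90 arrays and lower on both slides, the first 12 by the same ranking were Car3, Enah, Vof16, Ncam1, Maged1, Zfp57, Prss23, Tgfb3, Tgfb1i1, Ephb4, Ccn2 and Flnc. For the first 8 no TRKA array was well above background, so their order is not measured. On the TRKA arrays other than replicate 4, Ephb4 stood at -7.92 to -7.52 and Flnc at -7.85 to -7.48. These levels are about as low as those of Car3, so the slide 1 sizes of Ephb4 and Flnc are not measured well either. Car3 encodes carbonic anhydrase 3, known from muscle and fat, and its probe lies on chromosome 2 (88109979 to 88110038, rn4). It stood at 2.42, 2.85, 1.97 and 1.93 on the p75 arrays and at 4.34, 4.23, 4.12 and 4.31 on the CD90 arrays. On the TRKA arrays it stood at -7.95, -7.77, -7.54 and -8.05 and on the TRKA-TGF arrays at -7.59, -7.76, -7.89 and -8.15. No TRKA-side array showed it well above background, so that Car3 was at least 551-fold lower in TRKA than in p75 and at least 2265-fold lower in TRKA-TGF than in CD90 (limma adjusted p = 6.80e-12 and 2.46e-12).

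Enah encodes the actin elongation factor Mena and was at least 715-fold lower on slide 1, with a fitted difference of -9.52 on slide 2 (SE 1.02). Ncam1, the neural cell adhesion molecule, was at least 1320.2-fold lower on slide 1, with a fitted difference of -8.81 on slide 2 (SE 0.33), where 2 of 4 TRKA-TGF arrays were well above background. The ligand gene Tgfb3 was well above background on no TRKA-side array and at least 139-fold lower on slide 1 and at least 697-fold lower on slide 2. Tgfb1i1, which encodes the focal adhesion protein Hic-5, fell (-8.32 and -8.55, SE 0.98), as did the ephrin receptor gene Ephb4 (-8.31 and -8.25, SE 1.09) and the actin cross-linker gene Flnc (-8.33 and -8.23, SE 1.43).

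Basement membrane genes were lower on both slides in 5 of 13 members and higher in none (background 3.39 and 3.94%). The medians were -7.57 on slide 1 and -4.0 on slide 2, and 12 of the 13 were lower with slide as a block (background 11.8%). The shared count rose from 5 to 8 without TRKA replicate 1. Nid1, with its probe on chromosome 17 (66858545 to 66859398, rn4), stood at 4.81, 4.28, 4.19 and 4.45 on the p75 arrays and at 4.23, 4.40, 3.99 and 4.38 on the CD90 arrays. On the TRKA arrays it stood at -8.14, -7.79, -7.45 and -8.21, none well above background, and on the TRKA-TGF arrays at -4.80, -7.73, 0.32 and -2.95. The sides did not overlap, and the p75 and CD90 arrays lay within 1 log2 unit of each other. Nid1 was at least 2434-fold lower in TRKA than in p75 and fell by 8.04 on slide 2 (SE 1.15, limma adjusted p = 0.000221). The test of the difference between slides did not pass the threshold (adjusted p = 0.0825).

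The other shared members of the basement membrane list were collagen IV and laminin chains. Col4a1 was well above background on no TRKA-side array, and was at least 309.5-fold and at least 107.1-fold lower. Both of its 2 kept probes had these signs, and 1 of the 2 was shared when probes were tested one by one. Its partner Col4a2 fell (-8.83 and -5.56, SE 0.71), more on slide 1 (difference -3.27, limma adjusted p = 0.0361). Lamb1 fell by 7.57 on slide 1 (SE 1.27) and was at least 1348-fold lower on slide 2. Lamb2 fell as well (-3.32 and -2.27, SE 0.48). The gamma chain gene Lamc1 fell by 9.23 on slide 1 and differed by -2.92 on slide 2 without a call (SE 1.15), and the collagen-binding glycoprotein gene Sparc fell by 5.49 on slide 1 and differed by -4.12 on slide 2 (SE 1.37, adjusted p = 0.0607), a value that was called under 9 of the alternative settings. The slide 2 value of Lamc1 was called under 5 of them, and 1 of its 2 kept probes was shared when probes were tested one by one.

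Interstitial matrix genes were lower on both slides in 10 of 20 members (background 3.39%). The lower calls numbered 11 on slide 1 (background 17.8%) and 18 on slide 2 (background 7.03%). Col5a1, a fibril-initiating collagen, fell by 7.93 on slide 1 (SE 1.41) and was at least 1493-fold lower on slide 2. The microfibril gene Fbn1 was at least 79.0-fold lower on slide 1 and fell by 9.16 on slide 2 (SE 0.82). Col1a1 differed by -0.45 on slide 1 and fell by 5.46 on slide 2 (SE 0.29), and fibronectin, Fn1, differed by 0.35 and fell by 5.32 (SE 0.56). The Fn1 value on slide 1 turned to -0.38 under quantile normalization. The 2 slide differences differed for Col1a1 and Fn1 (5.01, limma adjusted p = 2.19e-06, and 5.67, adjusted p = 0.000239). The proteoglycan gene Vcan was the list's opposite case, higher in TRKA than in p75 (3.32) and lower in TRKA-TGF than in CD90 (-2.21, SE 0.27, difference 5.53, adjusted p = 3.40e-07).

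Focal adhesion genes were lower on both slides in 5 of 19 members (background 3.39%), and 2 were called with opposite signs (background 1.09%). Besides Enah, these included Parva and Lims2, which encode partners of integrin-linked kinase. Parva was at least 194-fold lower on slide 1 and fell by 7.13 on slide 2 (SE 1.28), and Lims2 fell by 9.38 on slide 1 (SE 0.58) and was at least 62.0-fold lower on slide 2. The integrin gene Itgb8 was at least 299.4-fold and at least 29.0-fold lower. Actn1, alpha-actinin-1, was higher in TRKA than in p75 (1.05) and lower in TRKA-TGF than in CD90 (-2.77, SE 0.26). The slide 1 call on Actn1 was lost under quantile normalization and under the detected-probe scaling. Cell junction genes were shared in 4 of 13 members, 1 higher and 3 lower (background 3.94 and 3.39%). The scaffold gene Tjp1 (ZO-1) fell (-8.92 and -7.34, SE 0.52), as did N-cadherin, Cdh2 (-5.11 and -3.79, SE 0.65). The 1 member that was higher, Cdh13, rested on 1 of its 2 probes (3.43 and 1.33, SE 0.41), and the other gave 2.17 and -6.91. The slide 2 call on Cdh13 was lost without any of 7 arrays (CD90 replicate 1 or 2, p75 replicate 4, or any TRKA-TGF replicate), with differences of 1.11 to 1.52 and limma adjusted p of up to 0.133. The count of junction genes lower on both slides went from 3 to 5 without TRKA replicate 2. Caveola genes were lower on both slides in 3 of 6 members (background 3.39%), a count that ran from 0 to 3 under other settings and from 1 to 2 when any 1 array was left out. It was 1 without any CD90 replicate, p75 replicate 3 or TRKA-TGF replicate 1, 2 or 3.

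Hippo pathway effectors and targets were lower on both slides in 6 of 13 members and higher in none (background 3.39 and 3.94%), with medians of -4.18 and -4.37. Wwtr1 encodes TAZ and stood at 0.42, 1.49, 1.35 and -1.57 on the p75 arrays and at -0.46, 0.43, -0.81 and 0.44 on the CD90 arrays. On the TRKA arrays it stood at -8.00, -7.80, -7.56 and -8.05 and on the TRKA-TGF arrays at -7.64, -6.85, -7.93 and -7.86, none of them well above background. It was at least 151-fold lower in TRKA and at least 111-fold lower in TRKA-TGF (limma adjusted p = 1.13e-07 and 7.84e-07). Tead1, a DNA-binding partner of TAZ, was at least 181-fold and at least 384-fold lower. Yap1, the paralogue of TAZ, was not called on either slide (-0.79 and -0.14, SE 0.45, adjusted p = 0.196 and 0.898), and it was well above background on all 16 arrays.

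The targets Ccn2 and Ccn1, whose promoters are printed above, fell as well. Ccn2 stood at 4.58, 4.16, 4.09 and 4.57 on the p75 arrays and at 3.97, 4.31, 3.99 and 4.20 on the CD90 arrays. On the TRKA arrays it stood at -8.00, -0.83, -4.19 and -2.55 and on the TRKA-TGF arrays at -6.87, -7.75, -7.94 and -3.73. The TRKA arrays spread widely yet did not reach the other side, and the differences were -8.24 and -10.69 (SE 1.22, limma adjusted p = 0.000142 and 3.31e-05). Ccn1 (-2.76 and -4.57, SE 0.35) fell more on slide 2 than on slide 1 (limma adjusted p = 0.0212). Amotl2 fell by 6.66 on slide 1 (SE 0.60) and was at least 308-fold lower on slide 2. Ankrd1, which encodes a titin-binding protein of stretched muscle, was at least 70.7-fold and at least 13.8-fold lower.

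**Figure D4:**
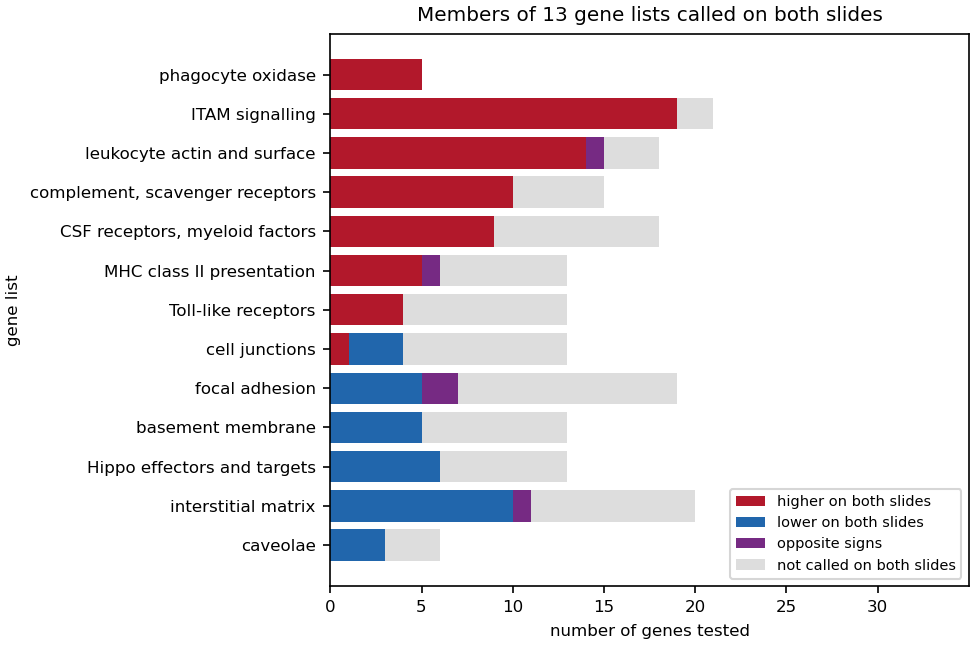
Number of genes tested (horizontal axis) in 13 gene lists, split into members called higher on both slides (red), lower on both slides (blue), called with opposite signs (purple) and not called on both slides (grey). ITAM signalling has 19 of 21 members in red and the phagocyte oxidase 5 of 5, and the interstitial matrix has 10 of 20 in blue.

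**Figure D5:**
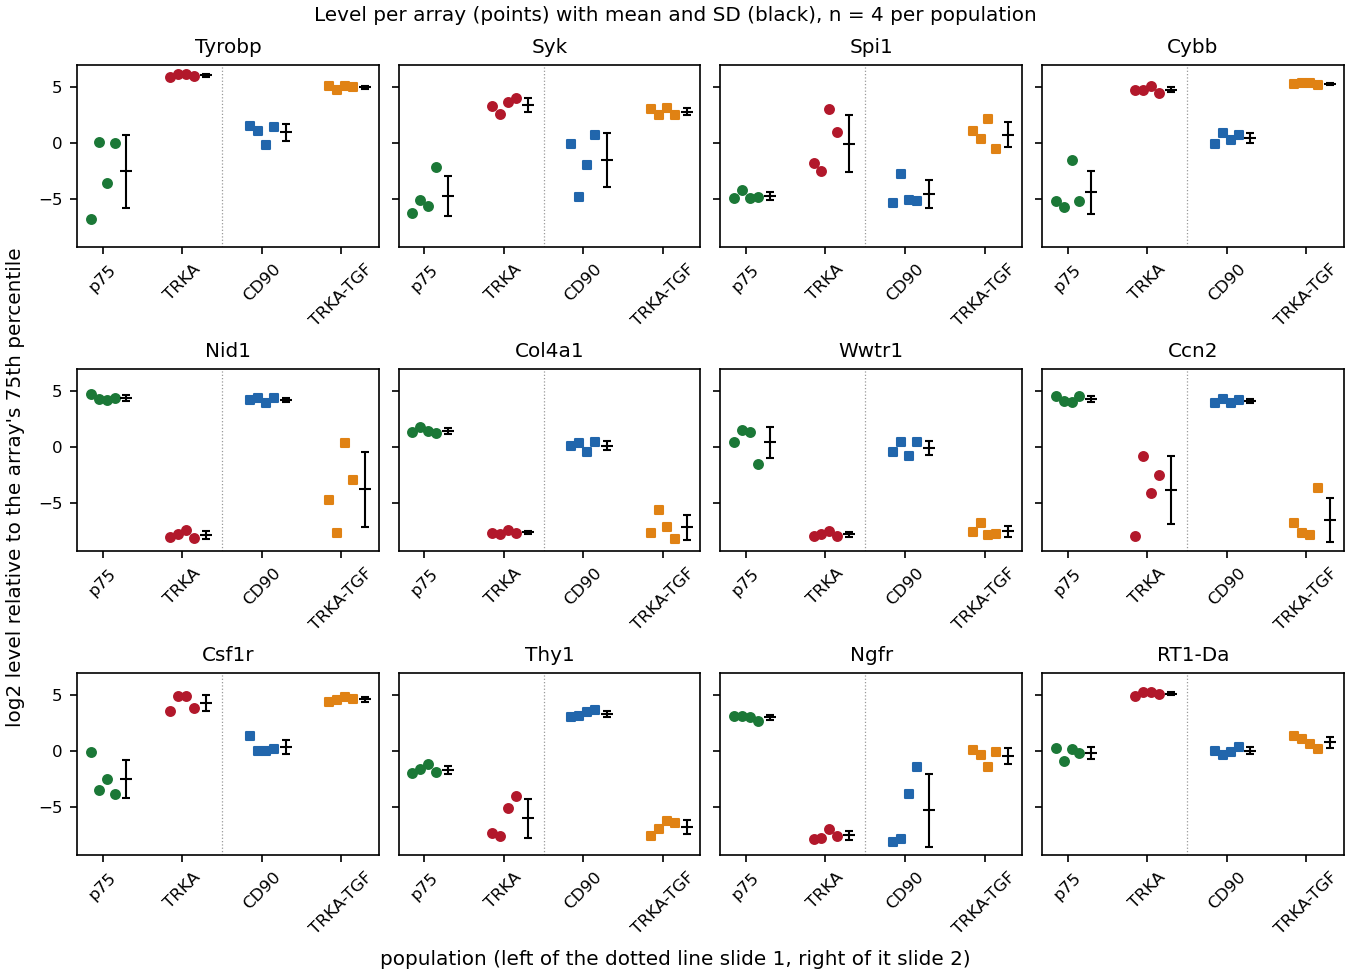
Level of 12 genes on each array (log2 units, the array's 75th percentile at 0), with circles for slide 1 (p75 and TRKA) and squares for slide 2 (CD90 and TRKA-TGF), and the mean and SD of the 4 arrays in black. Tyrobp, Syk, Spi1, Cybb and Csf1r are higher and Nid1, Col4a1, Wwtr1 and Ccn2 lower in both TRKA populations, and RT1-Da is high in TRKA alone.

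Promoters from RefSeq, 250 bases before to 50 after the start, matched 11668 of the 14249 tested genes with a symbol. GAGGAAGT, on either strand, was present in 7.07% of the 495 promoters of genes higher on both slides, in 1.62% of the 432 of genes lower on both slides and in 2.59% of all promoters tested. GGAATG was present in 12.3, 15.3 and 11.6% of the same sets, and in 6 of the 9 matched Hippo list promoters. Of these, Amotl2, Ccn1 and Ccn2 were lower on both slides, whereas Ajuba, Nuak2 and Yap1 were not shared. The Hippo list was made to hold known targets of these factors, so its share of matches is no independent result. The AP-1 motif TGANTCA was present in 7.68, 6.48 and 5.31%, and the C/EBP motif TTGCNNAA in 12.7, 8.80 and 9.21%. Over the whole table of 27457 promoters the 4 motifs were present in 2.44% (GAGGAAGT), 13.9% (GGAATG), 7.33% (TGANTCA) and 10.5% (TTGCNNAA). No 2 of these motifs are the same word, though matches may overlap, and a match describes letters in a window and not a bound site.

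Other receptor genes, among them those of CD90 and p75, were read in the same way. Ntrk3, the neurotrophin-3 receptor gene, was at least 115-fold and at least 170.3-fold lower in the TRKA populations. Thy1, the gene of CD90, was lower on both slides (-4.37 and -10.21, SE 0.66). Ngfr, which encodes p75, was well above background on no TRKA array and lower there than in p75 by at least 919-fold, and it was higher in TRKA-TGF than in CD90 (4.89, SE 1.14), where it stood at 0.09, -0.36, -1.49 and -0.06 against -8.17, -7.91, -3.87 and -1.43.

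Lists of cell type markers were read beside these gene groups. They too were chosen with earlier results of these data known, so their counts are no independent test either. Of 15 macrophage markers, 11 were higher on both slides and none lower (background 3.94 and 3.39%), and their summed linear level (in units of the array's 75th percentile) was 542 to 646 in TRKA, 245 to 262 in TRKA-TGF, 6.69 to 12.8 in p75 and 21.5 to 38.5 in CD90. Of 14 fibroblast and smooth muscle markers, 5 were lower in TRKA than in p75 (background 17.8%), all 14 in TRKA-TGF than in CD90 (7.03%), and 5 on both slides (3.39%). Their summed level was 89.7 to 141 in TRKA, 6.83 to 15.8 in TRKA-TGF, 222 to 238 in p75 and 541 to 619 in CD90. All 12 glial markers were lower in TRKA than in p75 (background 17.8%), and on slide 2, 3 were higher and 1 lower in TRKA-TGF (background 7.88 and 7.03%). Their summed level was 98.1 to 106 in p75, 0.308 to 0.963 in TRKA, 1.48 to 2.61 in TRKA-TGF and 3.67 to 5.19 in CD90.

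These marker lists share members with the gene groups above, such as Tyrobp and Csf1r with the macrophage list and Nid1 and Col1a1 with the fibroblast and smooth muscle list. The part of cell type in the differences was not tested. No shared call was found in the lists for neutrophils (6 tested), T and NK cells (6), B cells (3), dendritic cells (4), epithelium (8), endothelium (5), neurons (6) or erythroid cells (3), and the mast cell list had 1 of 6, lower. With 7.33% of all genes shared, counts this small cannot be read against the background. The neutrophil list had a summed level of 0.339 to 7.41 in TRKA, 0.562 to 1.15 in TRKA-TGF, 0.476 to 2.03 in p75 and 0.699 to 1.47 in CD90, with TRKA replicates 3 and 4 at 7.41 and 5.90. Of its genes, Mpo, Elane and Cxcr2 were well above background on no array, S100a8 on 3 TRKA arrays and no others, and Ngp on 4 TRKA, 1 p75, 3 CD90 and 3 TRKA-TGF arrays. Lcn2 was well above background on every array, and Camp, Csf3r, Mmp9 and S100a9 on arrays of every population. Mmp8 was so on 3 TRKA-TGF arrays and no others. The mast cell list had a summed level of 1.28 to 7.65 in TRKA, 0.902 to 1.43 in TRKA-TGF, 1.68 to 2.26 in p75 and 2.06 to 2.66 in CD90, and 3 of the 4 TRKA arrays lay between 7.22 and 7.65. Of its genes, Cpa3 and Ms4a2 were well above background on no array and Hdc on 3 TRKA arrays and no others. Kit, Tpsb2 and Tpsab1 were well above background on every array, and Fcer1a, Gata2 and Mcpt1 on arrays of every population. The part of such cells in the higher values of TRKA was not tested.

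The 225 genes called with opposite signs (1.09%) comprised 138 lower in TRKA and higher in TRKA-TGF (0.671%) and 87 of the reverse (0.423%). The first 6 by the smaller fitted difference were Cacng4, Aldh1a1, Celf2, Aoc2-ps1, Itga6 and Lin37, all lower in TRKA than in p75 and higher in TRKA-TGF than in CD90. Aldh1a1 encodes a retinaldehyde dehydrogenase and has its probe on chromosome 1 (223773152 to 223773211, rn4). It stood at -7.35, -7.58, -7.02 and -6.74 in TRKA and at 3.01, 2.37, 2.61 and 2.22 in p75. It stood at -0.17, -1.16, -1.19 and -2.23 in TRKA-TGF and at -6.62, -6.89, -7.44 and -7.40 in CD90. It was at least 628-fold lower on slide 1 and at least 57.6-fold higher on slide 2, and the test of the difference between slides was called (limma adjusted p = 1.16e-09).

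The remaining 5 behaved alike in sign but not in spread. Cacng4, a transmembrane regulator of AMPA receptors and calcium channels, was at least 97.03-fold lower and at least 93.7-fold higher. The RNA-binding protein gene Celf2 differed by -6.54 and 5.83 (SE 1.47), and Aoc2-ps1, an amine oxidase pseudogene, was at least 59.5-fold lower on slide 1 and higher by 5.58 on slide 2 (SE 0.77). Lin37, a subunit gene of the DREAM complex, differed by -5.32 and 5.76 (SE 0.92). The laminin receptor gene Itga6 differed by -6.44 and 5.54 (SE 1.42), and its call on slide 2 was lost without CD90 replicate 4 or TRKA-TGF replicate 2 (lowest difference 4.98, limma adjusted p up to 0.0521).

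Size differed between slides for part of the shared genes. The test of the difference between the 2 slide differences called 3799 genes (18.5%), and 285 of these (1.39% of all genes) were shared, 214 with the larger fitted change on slide 1 and 71 on slide 2, bounds included. Across all genes the 2 differences correlated at r = 0.358 (Spearman's rho 0.258, n = 20558 genes, which are not independent replicates). Slide, p75 against CD90 as the comparator and TGF-a conditioning cannot be told apart in these differences between slides.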

How the data were processed

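Members and gene lists were chosen with earlier results of these data known. Each deposited scanner file gives linear intensities per spot. Per the file headers, Agilent Feature Extraction 10.7.3.1 made the background-subtracted signal used here, whereas the submitters' processing notes name version 10.5. The authors also deposited log2 values, which matched quantile-normalized log2 signals centred on each probe's median, with column medians of -0.03 to 0.19. Direction and centring of these values were found by that match, and they served as an alternative only.

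Each array had 58717 spots besides 4259 control spots and none was saturated. Signals were log2 transformed and the 75th percentile over non-control probes was subtracted; spots marked as outliers were left out and spots of 1 probe averaged (30367 probes, 8622 without a name in RefSeq). A probe was kept when well above background on at least 4 arrays, and a gene took its brightest kept probe, which gave 20558 genes, 14249 with a symbol. When probes were tested one by one, Ptprc, Sirpa and Ntrk3, like Col4a1, had 1 of 2 kept probes shared, with the same signs in both. Positions are those of the array files.

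Contrasts came from limma 3.58.1 under R 4.3.3 (and the data.table package 1.17.8), with Benjamini-Hochberg adjustment and 1 mean per group over all 16 arrays, or slide plus TRKA type for the blocked fit. The procedure was also run on simulated data with 1 spread per gene for all groups and no lower limit of signal. Real arrays differ in both respects, so that run does not show how the procedure handles noisier groups or dim probes. "At least N-fold" sets the brighter group's mean against the mean, in the dimmer group, of the larger of each array's lowest signal well above background and the dim probe's signal. That lowest signal is not a detection limit for every probe, since some brighter probes were also not well above background. Each such fold is therefore a bound under this rule only and may be too high. Genes were named by a rule: the first 12 higher, 12 lower and 6 opposite by the smaller difference, Tyrobp, Nid1 and list members. Examples from the lists were picked with their values in view. The number of arrays limits the precision. Alternatives covered background correction, scaling, filters, probe choice, variance settings, the replicate block, single-slide fits and leaving out each array. Some genes are not reported here.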

Additional observations from a re-analysis of the deposited data

Results flagged for a closer look

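In 38 of 420 groups of 4 arrays, 1 array stood apart from the other 3 by Dixon's criterion; chance alone marks about 1 group in 20. The level of the array that stood apart is given, in log2 units relative to the 75th percentile. p75 replicate 2 stood apart for Spi1 at -4.23 and Cd14 at -8.49. p75 replicate 3 stood apart for Igsf7 l1 at -8.05, Ptpro at -8.04, Cd53 at -4.30, Clec4d at -8.01, Celf2 at 1.61, Plcg2 at -4.10, Vav1 at -8.02, Itgb2 at -7.86, Cybb at -1.55 and Cd83 at -8.21. p75 replicate 4 stood apart for Fcna at -2.82, Alox5ap at -5.17, Btk at -4.07 and Csf2ra at -0.83. CD90 replicate 1 stood apart for Cd53 at -6.33, Myo1g at -3.38, Snx20 at -6.44, Csf1r at 1.34 and Cd83 at -1.31. CD90 replicate 2 stood apart for Fgr at -1.49, Inpp5d at -6.98, Csf2ra at -2.90, Spi1 at -2.76 and Cd163 at -3.24. CD90 replicate 3 stood apart for Alox5ap at 0.19 and Fcgr3a at -7.21. TRKA replicate 1 stood apart for Myo1g at -3.77 and Lamb1 at -0.24. TRKA replicate 2 stood apart for Cd53 at -0.29. TRKA replicate 3 stood apart for Col4a1 at -7.45. TRKA replicate 4 stood apart for Ephb4 at -3.40 and Flnc at -0.81. TRKA-TGF replicate 2 stood apart for Col4a2 at -4.11 and Fbn1 at -3.41. TRKA-TGF replicate 3 stood apart for Enah at -1.75. TRKA-TGF replicate 4 stood apart for Vof16 at -4.67. For genes with no array well above background in a population, such as Vav1 and Ptpro in p75, these levels are bounds only.

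Over all 20558 genes, 3799 (18.5%) had slide differences that differed from each other. The named genes were picked in part by their differences, 6 of them for opposite signs. Among the named genes, the TRKA minus p75 difference differed from the TRKA-TGF minus CD90 difference in 42 of 104 (limma, adjusted p under 0.05 over all genes). The first exceeded the second, as signed log2 values, for Snx20 (3.56), Car3 (1.98), Tgfb3 (2.38), Fcer1g (2.06), Maf (2.13), Cebpb (3.64), Itgb2 (5.18), Fyb1 (6.96), Cybb (4.38) and Ncf1 (3.10). The same held for Tlr2 (5.16), Cd74 (3.99), Ctss (1.92), Ciita (6.93), RT1-Da (4.56), RT1-Db1 (4.91), Cd163 (11.39), Msr1 (3.93), Cd68 (3.49) and Col1a1 (5.01). It also held for Fn1 (5.67), Vcan (5.53), Actn1 (3.82), Tead1 (1.52), Amotl2 (2.61), Ccn1 (1.81), Cdh13 (2.10) and Thy1 (5.84). The second exceeded the first for Ncam1 (-2.53), Cacng4 (-15.14), Aldh1a1 (-15.63), Celf2 (-12.37), Aoc2-ps1 (-11.89), Itga6 (-11.98) and Lin37 (-11.08), and for Nr1h3 (-8.60), Pparg (-4.26), Cd48 (-7.86), Col4a2 (-3.27), Lamc1 (-6.30), Lims2 (-2.54) and Ngfr (-15.51). Where a population had no array well above background, as for Tgfb3, Car3, Ncam1, Aldh1a1 and Cd163, these are differences of bounds, and their size and order are not measured. These differences set p75 on slide 1 against CD90 on slide 2, and conditioned against unconditioned cells, which cannot be told apart.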

How the results depend on the processing

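With any 1 array left out, the count of shared genes ran from 1273 to 1594, of calls with slide as a block from 4307 to 4970, of TRKA versus p75 from 6091 to 7365, of TRKA-TGF versus CD90 from 2450 to 3426, and of differences between slides from 3084 to 4281. Array weights moved the TRKA-TGF versus CD90 count from 3065 to 4702, and every other alternative run kept these 5 counts within 1.5 times; the cause was not tested. Deviations of arrays from their group mean correlated at -0.02 to 0.04 over 24 same-number pairs. Over 72 pairs of unlike numbers they correlated at -0.04 to 0.03. For TRKA with TRKA-TGF the same-number pairs stood at 0.02, 0.01, 0.04 and 0.02. Whether equal numbers mark the same animal or culture cannot be told from these values. With the replicate number as a block, 1393 genes were shared, 1349 of them among the 1506.

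Of 208 differences of named genes, 185 kept their sign and side of the threshold throughout. Signs turned for uncalled values of Fn1 on slide 1 (-0.38 with quantile normalization, -0.43 with the detected-probe percentile, -0.38 in the authors' table). Pparg on slide 1 was -0.25 with the detected-probe percentile, and Cd163 on slide 2 ran from -1.30 to 0.47 with single arrays left out, the last without CD90 replicate 2. A called value turned for Cdh13 on slide 2, which was -2.79 with its probes averaged. Values of probes not well above background are bounds only, and the part of the lower detection on TRKA arrays in the lower calls there was not tested.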

Other observations

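Genes without a current symbol leaned further to the TRKA side. Of the shared genes without a symbol 61.9% were higher in the TRKA populations, against 51.8% of those with a symbol, and these shares move with the scaling as the counts do. Array pairs of TRKA and TRKA-TGF, which lie on different slides, correlated at 0.728 to 0.802 across probes, against 0.653 to 0.72 for TRKA with p75 on the same slide and 0.797 to 0.815 for TRKA-TGF with CD90 on the same slide. Across slides, TRKA-TGF correlated with p75 at 0.788 to 0.820 and TRKA with CD90 at 0.661 to 0.730.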
